A study of Drosophila melanogaster with 4 samples.

Results

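Short stretches of chromatin carrying H3K36me1, standing apart from other enriched regions on the autosomal arms and called in both replicates, are described here. H3K36me1 is histone H3 with a single methyl group on lysine 36, and it was mapped by chromatin immunoprecipitation followed by sequencing. The material was wild-type Oregon-R fruit fly embryos, collected at 14 to 16 hours. The series holds 4 samples of the same strain and stage, namely 2 immunoprecipitated replicates and 2 input samples, whose chromatin was not immunoprecipitated. The authors deposited a list of enriched regions for each replicate and 1 joint list for both, and the inputs serve as background and have no list. Members were chosen by position, length and gap in replicate 1 and by overlap with replicate 2. They were the regions of the replicate 1 list that lay on 2L, 2R, 3L or 3R, were under 5000 bp long, had a gap of at least 1000 bp to the next region on both sides, and shared at least 1 bp with a region of replicate 2. Positions are those of FlyBase release 5. There were 1316 members among the 5434 regions of the replicate 1 list, or 24.2%.

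Histone H3 lysine 36 can carry 1 or more methyl groups. The trimethylated form, laid down by Set2 together with elongating RNA polymerase, marks the bodies of transcribed genes, and the monomethylated form is the less studied. In chromatin maps of Drosophila cell lines, H3K36me1 was found with H3K4me1 and H3K27ac over introns of long active genes, a setting in which enhancers are often found. Whole embryos were used, so a region may be marked in many cells or in few, and its score cannot tell these apart.

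The selection used the length, position and gaps of each region in replicate 1 and its overlap with replicate 2, so these values describe the members and test nothing. The 4 arms held 4262 regions in replicate 1, of which 2338 were under 5000 bp and isolated. Replicate 2 overlapped 1316 of these 2338, or 56.3%, against 68.5% of all regions of the list. The other 1022 were isolated and short but had no counterpart. Members covered 3.37 Mb, which was 18.1% of the enriched length of the 4 arms in replicate 1 and 3.48% of the sequence of these arms. Regions of at least 10 kb, called broad here, numbered 354 on these arms and held 39.4% of the enriched length.

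The values next to each limit of the selection are given here as a description. The longest member, on 2L from 11172531 to 11177524, was 4994 bp long and scored 0.699 in replicate 1 and 0.710 in replicate 2. The shortest isolated and overlapped region beyond the length limit, on 3R from 13995290 to 14000297, was 5008 bp long and scored 0.682 and 0.656. At the gap limit, the closest members were neighbours of each other on 2R, from 3411705 to 3413604 and from 3414608 to 3417205, separated by 1003 bp. A pair on 2R 998 bp apart, from 13711207 to 13712529 and from 13713528 to 13715586, fell outside. The smallest overlap of a member with replicate 2 was 5 bp, on 3R from 7194586 to 7196591, and the closest region without overlap lay 3 bp away from a region of replicate 2, on 3R from 17256798 to 17258149. These regions were picked for lying next to a limit, so how alike they are shows nothing about the other members.

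Most members were called over much of the same sequence in replicate 2. The rule asked for 1 bp, and the median overlap was 1839.5 bp (interquartile range 1449 to 2423 bp). Replicate 2 covered a median of 85.4% of a member's length (interquartile range 70.6% to 95.4%), against 88.8% over all overlapped regions of the list. The overlapping region of replicate 2 lay inside the member to a median of 95.8%. Overlap of at least 50% of both regions was found for 1137 members (86.4%), against 80.8% of all overlapped regions of the list. Among isolated short regions of the X that replicate 2 overlapped, the share was 85.3%. A total of 174 members (13.2%) lay wholly within replicate 2, and 536 (40.7%) were covered to at least 90%. At the other end, 125 members (9.50%) were covered to less than 50% and 11 to less than 10%. These counts by covered share were not made for other regions. The least covered member, on 3R from 7194586 to 7196591, met the end of a replicate 2 region that ran from 7192350 to 7194590. It therefore entered by its edge and had no call of replicate 2 over its own centre.

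The ends of the regions moved inwards in replicate 2 more often than outwards. For the 1277 members with a single counterpart, the median start lay 71 bp further right in replicate 2 and the median end 79 bp further left. The absolute offset had a median of 250 bp at the start and 233 bp at the end. Both ends lay within 100 bp of each other for 112 of these members (8.77%), within 500 bp for 740 (57.9%) and within 1000 bp for 995 (77.9%). The counterpart was shorter than the member for 816 (63.9%) and longer for 460, and its length differed by a median of -161 bp (replicate 2 minus replicate 1). It lay wholly inside the member in 439 cases, enclosed it in 174, and was shifted to 1 side in 664. Small shifts of both ends were therefore the usual case for regions whose median length was 2281.5 bp.

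**Figure D1:**
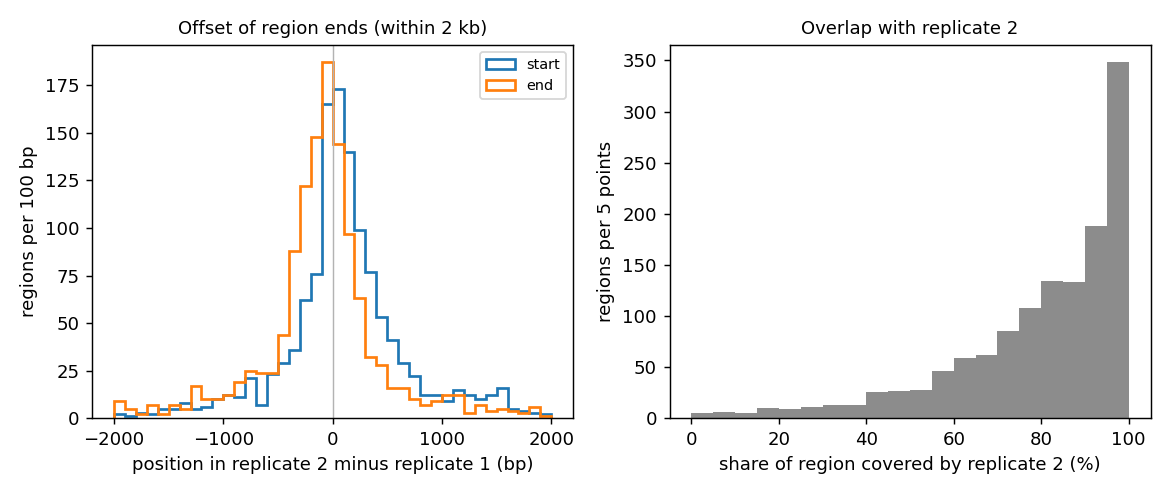
The left panel plots, for members with a single counterpart, how far the start and the end of the replicate 2 region lay from those of replicate 1, in bp, with 69 of 1277 members having an end beyond the 2000 bp shown. The right panel plots the share of each of the 1316 members covered by replicate 2, in percent, with most members near the upper end and a median of 85.4%.

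Most members also stood alone and stayed short in replicate 2, where the rule did not ask for it. These shares are not independent of the rule, which asked for isolation and a short length in replicate 1. For 1151 members (87.5%) every overlapping region of replicate 2 was at least 1000 bp from its own neighbours. This was so for 66.1% of all overlapped regions of the autosomal arms, clustered and long ones included. The share was not worked out for isolated short regions of the X. For 1278 members (97.1%) the main counterpart was under 5000 bp, against 71.3% of all overlapped autosomal regions, long ones included, and 83.2% of the 760 clustered short ones. Isolation, length and a single counterpart were met together by 1132 members (86.0%), a count not made for other regions. The median of the smaller gap was 3.29 kb in replicate 1, while in replicate 2 it was 4.22 kb. The gaps of both replicates had a Spearman correlation of 0.586 over the 1316 members. With the lists exchanged, so that the rule ran on replicate 2, it found 1527 of 4523 regions. These were 80.3% of the 1901 isolated short autosomal regions of replicate 2. Replicate 2 had the shorter list, and the share overlapped over all its regions was not worked out.

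Some members were parts of something larger in replicate 2. A pair of replicate 2 regions met the same member in 39 cases, and 10 of the 1345 replicate 2 regions that met members spanned more than 1 of them. The 39 members with a pair of counterparts were 3953 bp long in the median, against 2258 bp for the 1277 with 1 counterpart, and their counterparts were separated by a median of 357 bp. In 38 members the main counterpart was at least 5000 bp long, and in 4 it was at least 10 kb. The member on 2L from 16695220 to 16697994 met the right end of a replicate 2 region of 14.6 kb with an overlap of 573 bp. On 3L from 1142766 to 1146441, a member of 3676 bp lay mostly within a replicate 2 region of 11.7 kb, with 3382 bp in common. The next region of replicate 1 was 1028 bp to its right. These cases show that an isolated short call in 1 replicate could be the flank of a broad domain in the other.

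The authors gave each region a score, with a scale that the sources used here do not give, so levels are compared within a list only. In replicate 1 the members scored 0.594 in the median (interquartile range 0.517 to 0.686, range 0.258 to 1.84). In replicate 2 the highest score over each member had a median of 0.658 (interquartile range 0.579 to 0.744, range 0.300 to 1.96). The median member stood at percentile 44.7 of all scores of replicate 1 and at percentile 36.1 of all scores of replicate 2. In replicate 1, 572 members (43.5%) reached the median score of the whole list, and in replicate 2, 426 (32.4%) did. Members were thus spread over most of the score range of each list, with more of them below its middle than above.

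Scores ranked members alike in the replicates, though loosely. The Spearman correlation over the 1316 members was 0.565, against 0.752 over all overlapped regions of the list. Over members with a reciprocal overlap of at least 50% it was 0.617. Over the short regions most like the members it was lower by value, at 0.431 over 760 clustered autosomal regions and 0.409 over 307 isolated regions of the X. Over regions of 5 to 10 kb on the same arms it was 0.807, and over those of at least 10 kb it was 0.915. Members share a library within each replicate, their scores follow their lengths, and short regions have a narrow range of scores, so the correlations are given without a p-value. By rank among the members, the replicates differed by a median of 15.6 percentile points. The ranks lay within 10 points of each other for 457 members (34.7%) and more than 50 points apart for 108 (8.21%). Of the 264 members in the top 20% of replicate 1, 153 (58.0%) were in the top 20% of replicate 2, and of the 263 in the bottom 20%, 123 (46.8%) were in its bottom 20%. Unrelated ranks would give about 20% in each case. These shares by rank were not worked out for other regions.

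**Figure D2:**
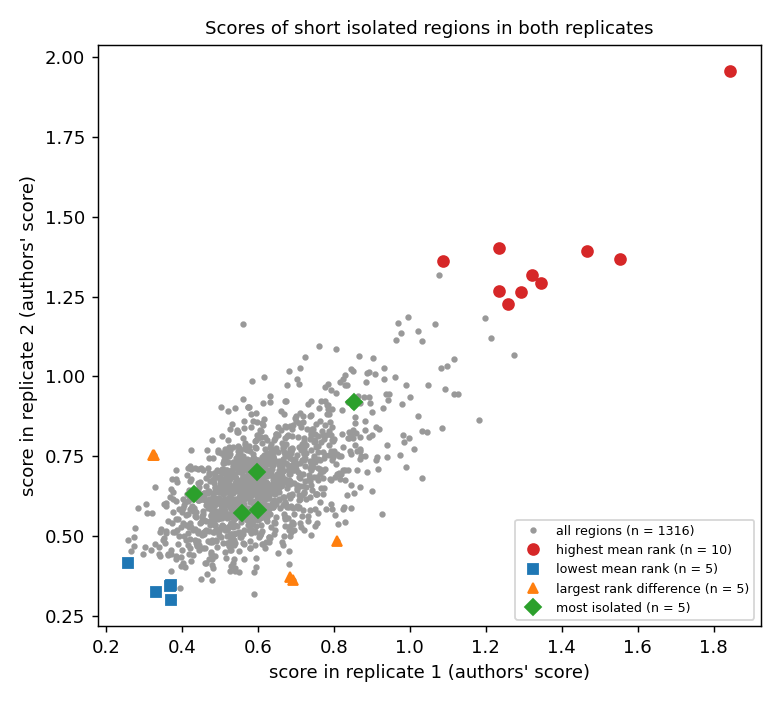
Each point is 1 of the 1316 members, with the authors' score in replicate 1 on the horizontal axis and the highest score over it in replicate 2 on the vertical axis. Coloured symbols mark the 10 members with the highest mean rank, the 5 with the lowest, the 5 with the largest difference in rank and the 5 most isolated, and the region on 2L with scores of 1.84 and 1.96 stands alone at the upper right.

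The strongest member in both replicates lay on 2L from 21048423 to 21052062. It was 3640 bp long and scored 1.84 in replicate 1 and 1.96 in replicate 2, and the replicate 2 region ran from 21048377 to 21052094, so that both ends agreed within 50 bp. A region of at least 10 kb lay 6.28 kb to its left, and the next region on its right was 1.14 kb away. Both scores were the highest of any member, and the next highest were 1.55 in replicate 1 and 1.40 in replicate 2.

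The next members by mean rank of score lay on 2R and 3L. The member on 2R from 3372925 to 3376687 scored 1.47 in replicate 1 and 1.39 in replicate 2, and the nearest region of at least 10 kb was 513.6 kb away. The member on 2R from 13345607 to 13350398 scored 1.55 and 1.37, with the nearest such region at 213.3 kb. On 3L, the member from 8430294 to 8435157 scored 1.32 in both replicates, and the one from 1512851 to 1516782 scored 1.35 and 1.29. Strong members therefore occurred far from broad domains as well as beside them.

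The remaining 5 of the first 10 had scores between 1.09 and 1.40. On 2R, the member from 17042682 to 17047669 scored 1.23 and 1.40 and the one from 8500466 to 8504628 scored 1.24 and 1.27. On 3R, the member from 27047357 to 27051952 scored 1.29 and 1.26, with an empty stretch of 169.1 kb to its right. The member on 3R from 19926355 to 19931135 scored 1.26 and 1.23, and in the joint list it was part of a region of 10.3 kb. The tenth, on 2L from 18964632 to 18968818, scored 1.09 and 1.36. All 10 had a single counterpart in replicate 2, were covered to between 88.5% and 100% by it, and were between 3.64 and 4.99 kb long, in the upper part of the length range. A total of 20 members (1.52%) scored 1 or more in both replicates, a count not made for other regions.

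The weakest members were also called at closely similar positions. The member with the lowest mean rank, on 3R from 20579486 to 20580952, was 1467 bp long, scored 0.333 and 0.324, and met its counterpart over 1321 bp. On 2L, the member from 10225188 to 10226933 scored 0.259 and 0.416 and was covered to 99.0%, and the one from 13377178 to 13378929 scored 0.370 and 0.300 and was covered to 93.7%. On 3R, the member from 20747812 to 20749678 scored 0.370 and 0.342. The last of the 5, on 3R from 7257382 to 7258856, scored 0.373 and 0.345. A low score did not mean a poor match in position for these 5, whose largest offset of an end was -364 bp (replicate 2 minus replicate 1).

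Other members ranked high in 1 replicate and low in the other. The largest difference, of 82.6 percentile points, was on 3R from 25054827 to 25057235, with scores of 0.809 in replicate 1 and 0.483 in replicate 2. On 3R from 7093565 to 7095179 the scores were 0.325 and 0.755. There the replicate 2 region of 3608 bp had a start offset of -2979 bp (replicate 2 minus replicate 1), and the joint list joined the site to a region of 12.5 kb. The member on 2R from 15277421 to 15278916 was wholly within its counterpart and still scored 0.326 and 0.753. On 3R from 23530182 to 23532472 the scores were 0.692 and 0.361 with only 198 bp in common, and on 2R from 3992604 to 3995476 they were 0.685 and 0.373. Of these 5, 3 were covered to more than 50% by replicate 2, at 77.5%, 100% and 51.3%, the last with an end offset of -1178 bp. A change of rank thus also occurred where the whole member was covered. The 5 smallest differences were at most 0.0760 points. They included 3 of the first 10 members, the region on 2R from 12093928 to 12097219 (scores of 0.893 and 0.934), and that on 3L from 23239961 to 23243823 (0.750 and 0.798).

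Longer members scored higher in each replicate. The Spearman correlation of score with length was 0.733 over members in replicate 1 and 0.733 over their counterparts in replicate 2. The 441 members under 2000 bp had a median score of 0.488 in replicate 1 and 0.594 in replicate 2. With each upper limit excluded, the 505 of 2000 to 3000 bp had 0.620 and 0.666, the 222 of 3000 to 4000 bp had 0.687 and 0.716, and the 148 of at least 4000 bp had 0.743 and 0.752. Whether length enters the score by construction was not tested, since its formula is not given. Correlation of the scores of both replicates was lower by value among short members, at 0.369 under 2000 bp and 0.313 from 2000 to 3000 bp, and it was 0.539 from 3000 to 4000 bp and 0.682 above.

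**Figure D3:**
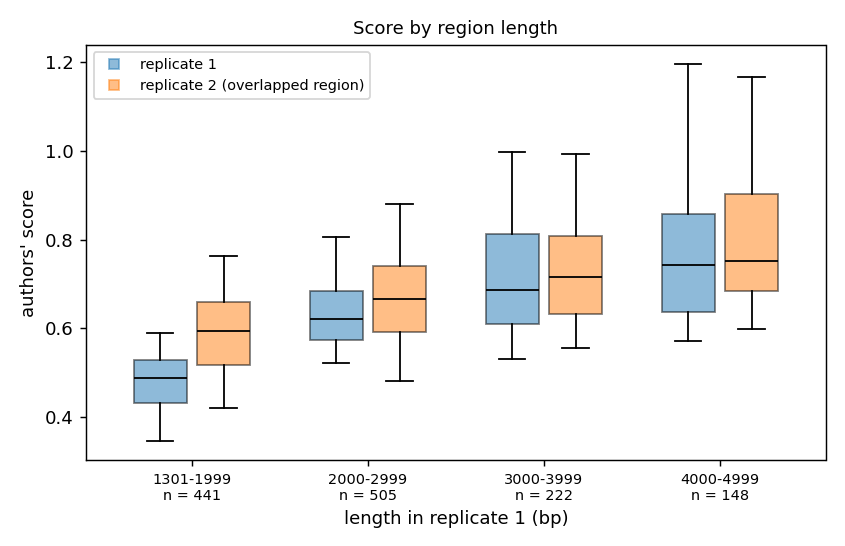
The authors' scores of members are plotted by length class in replicate 1 (bp), with replicate 1 at the left and the overlapped region of replicate 2 at the right of each pair. Boxes span the quartiles with the median as a line and whiskers reach the 5th and 95th percentiles over regions, and the medians rise over the 4 classes in both replicates, up to 0.743 and 0.752.

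Length also went with the share of regions that had a counterpart, a value the rule used. Of isolated regions under 2000 bp, 35.0% were overlapped by replicate 2, and this share was 74.7% from 2000 to 3000 bp, 90.2% from 3000 to 4000 bp and 94.9% above. The shortest members were 1301 bp long, on 3R from 218399 to 219699, 1302 bp long, on 2R from 3859850 to 3861151, and 1303 bp long, on 3L from 23680585 to 23681887. Their scores in replicate 1 were 0.444, 0.341 and 0.545. In replicate 2 they were 0.629, 0.512 and 0.827, over regions of 1339, 1869 and 2106 bp. All 3 had a longer counterpart, and no region of replicate 1 was shorter than 1301 bp.

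Isolated regions with and without a counterpart were compared in score within length classes. Under 2000 bp the members had a median score of 0.488 (interquartile range 0.431 to 0.530), against 0.499 (0.441 to 0.549) for the 819 isolated regions that replicate 2 did not overlap. From 2000 to 3000 bp the members had 0.620 (0.574 to 0.685), against 0.589 (0.560 to 0.637) for 171 such regions. From 3000 to 4000 bp they had 0.687 (0.610 to 0.813), against 0.585 (0.551 to 0.647) for 24. In the shortest class, which held most of the isolated regions without a counterpart, the score of replicate 1 thus did not set members apart, and the interquartile ranges overlapped in each of these classes. The ranges are over regions and not over embryo collections, and no test was made. Of the 1022 isolated regions without a counterpart, the median lay 4.75 kb from the nearest region of replicate 2, and 1013 (99.1%) were within or overlapped a region of the joint list.

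Short regions that stood in clusters were compared as the class most like the members. These were 760 autosomal regions under 5000 bp that replicate 2 overlapped and that had a neighbour less than 1000 bp away. Members were 2281.5 bp long in the median, against 2453.5 bp for clustered regions. Their median score in replicate 1 was 0.594, against 0.610 for clustered regions. In replicate 2 the highest score over each region had a median of 0.658 for members and 0.705 for clustered regions. This replicate 2 median was lower for members in each length class, from 0.594 against 0.648 under 2000 bp to 0.752 against 0.823 at 4000 bp or more. These differences in score were not tested. A reciprocal overlap of at least 50% was found for 86.4% of members and 70.1% of clustered regions. Within the class under 2000 bp it was 85.5% of members and 62.2% of clustered regions, and within the class of at least 4000 bp it was 80.4% and 77.6%. A clustered region can be joined to its neighbour in replicate 2, which lowers a reciprocal overlap by construction, and the difference was not tested. Isolated short regions on the X that replicate 2 overlapped numbered 307 and had a median score of 0.694 in replicate 1 and 0.769 in replicate 2, above the medians of the members in both.

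Isolation ranged from just over the limit to stretches of more than 100 kb. The smaller gap was 1 to 2 kb for 386 members, 2 to 5 kb for 500, 5 to 10 kb for 237, 10 to 50 kb for 174 and at least 50 kb for 19. Median scores in replicate 1 were 0.594, 0.595, 0.603, 0.582 and 0.554 over these classes in order. In replicate 2 they were 0.679, 0.663, 0.643, 0.626 and 0.581. The Spearman correlation of score with the smaller gap was -0.0413 in replicate 1 and -0.112 in replicate 2, so that rank by score followed rank by isolation only weakly. Isolation in replicate 2 as well was found for 78.8% of members with a gap of 1 to 2 kb and 94.9% of those with 5 to 10 kb.

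The most isolated member lay on 3L from 13657736 to 13659143, with no other region for 163.5 kb to its left and 206.2 kb to its right. It was 1408 bp long and scored 0.432 in replicate 1 and 0.631 in replicate 2, where it was 2171 bp long and had no neighbour for 160350 bp on either side. The second, on 3R from 26882901 to 26886031, had gaps of 135.8 and 151.6 kb and scored 0.853 and 0.919, and its ends agreed within 43 bp. The third, on 3L from 19438249 to 19441613, was 3365 bp long in replicate 1 and covered to 49.3% by a region of 1659 bp in replicate 2. The fourth, on 3R from 9089875 to 9091969, scored 0.599 and 0.701. The fifth, on 3R from 26029847 to 26031974, stood 94.3 kb from any neighbour in replicate 1, while replicate 2 had another region 1906 bp from its counterpart. The first 4 of these sites also had no neighbour closer than 98947 bp in replicate 2.

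In each replicate the called sequence dropped beside a member and then rose above the average of the arms. The rule keeps the 1000 bp beside a member free of other calls in replicate 1 only. At 2.5 kb from the centre, 5.62% to 5.85% of members had a call in replicate 1, 10.5% to 12.3% in replicate 2 and 30.2% to 32.1% in the joint list. The joint list covered 26.1% of the sequence of the arms, so its share there stayed above its average. At 7 kb the shares were 28.4% to 28.6% in replicate 1 and 22.3% to 23.9% in replicate 2, against 19.2% and 16.5% of the sequence of the 4 arms. A dip was also present in replicate 2, whose gaps had not been used. This dip is not independent of the rule, which asked for empty flanks in replicate 1 and an overlapping call in replicate 2. At 7 kb from members, calls were more frequent than the average of the arms. No profile was made around other regions, so neither feature can be called particular to members. At the centre itself 91.5% of members had a call in replicate 2.

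**Figure D4:**
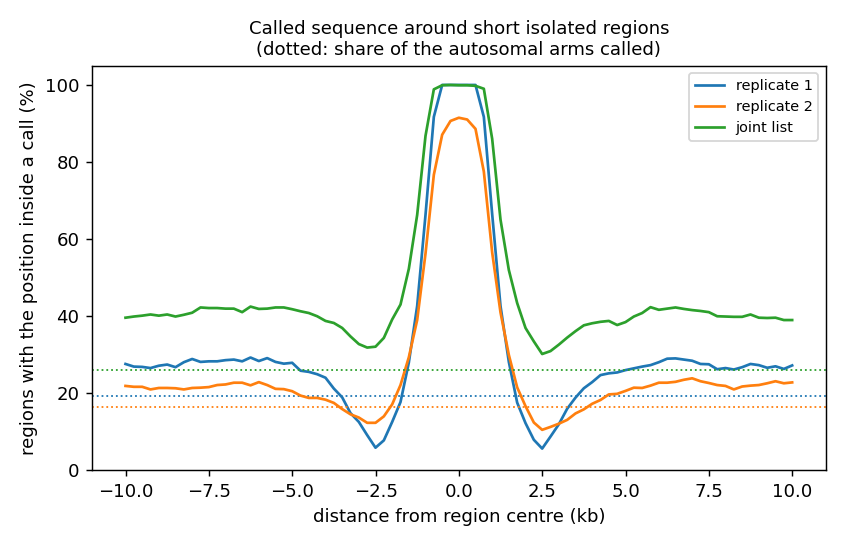
The share of the 1316 members, in percent, for which a position at a given distance from the member's centre (kb) lies inside a call of replicate 1, of replicate 2 or of the joint list. Dotted lines give the share of the autosomal arms called in each list, and the curves fall below them beside the member in replicates 1 and 2 and lie above them from about 5 kb on.

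The lengths of the nearest neighbours were close in share to those of all autosomal regions. The nearest neighbour was under 5000 bp for 1101 members (83.7%), 5 to 10 kb long for 139 (10.6%) and at least 10 kb long for 76 (5.78%), against 80.3%, 11.4% and 8.31% of all autosomal regions. The nearest region of at least 10 kb lay at a median of 96.0 kb in replicate 1, and the nearest such region of replicate 2 at a median of 122.7 kb. In replicate 1 it was within 10 kb for 140 members (10.6%) and beyond 100 kb for 642 (48.8%). The score of replicate 1 had a Spearman correlation of 0.0110 with this distance. Over all 2338 isolated short autosomal regions of replicate 1, members included, the median distance was 92.5 kb. The counts within 10 kb and beyond 100 kb were not made for other regions, so they cannot be called particular to members. At least 1 of both neighbours in the list was itself a member for 825 members (62.7%), against 51.9% of all autosomal regions. The rule favours such a difference, because the neighbour of a member already has a gap of at least 1000 bp on the shared side. A neighbour less than 1000 bp away, as clustered regions have, cannot be a member. The difference was not tested. The longest run of successive regions that were all members held 9, on 2L from 10766298 to 11018346, a span of 252.0 kb in which scores ran from 0.376 to 0.664 in replicate 1. Runs of 7 occurred on 2L from 298070 to 430148, on 2R from 19782543 to 19876146 and on 3R from 2946181 to 3044874.

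The 4 arms held similar numbers of members per length of sequence. There were 13.3 members per Mb on 2L, 15.1 on 2R, 13.1 on 3L and 13.3 on 3R, with counts of 306, 319, 321 and 370. Members were 31.5%, 31.4%, 28.6% and 32.1% of all regions on these arms. In replicate 1 the lowest median score was that of 2L, at 0.580, and the highest that of 2R, at 0.598. In replicate 2 the lowest was that of 2R, at 0.650, and the highest that of 2L, at 0.661. The arm with the lowest median in 1 replicate thus had the highest in the other. From the telomere end to the centromere end, the 4 arms together held 15.1, 13.7, 12.8, 12.9 and 13.6 members per Mb in successive parts of 20% of the arm. Single arms varied more, from 9.13 per Mb in the fourth part of 2L to 16.9 in the first part of 3L. The part next to the centromere held 16.6 per Mb on 2R and 12.2 on 2L. On 3L, the last 861.7 kb before the centromere end held no member.

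**Figure D5:**
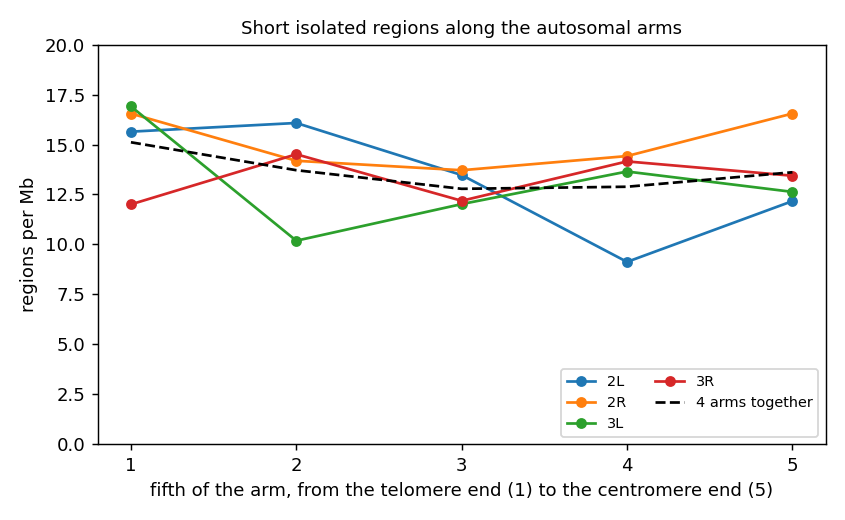
Members per Mb in 5 equal parts of each autosomal arm, from the telomere end (1) to the centromere end (5), with 1 line per arm and a dashed line for the 4 arms together. The pooled density stays between 12.8 and 15.1 per Mb, while single arms range from 9.13 to 16.9.

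In 95 full windows of 1 Mb, the number of members ranged from 4 to 28 with a median of 13, and no window had none. The richest, on 2R from 3000001 to 4000000, held 28 members among 64 regions and no region of at least 10 kb. The next were tied at 24 members. The one on 2L from 1 to 1000000 had 74 regions, of which 8 were at least 10 kb long, and the one on 3R from 11000001 to 12000000 had 54, of which 3 were. The poorest, on 3L from 23000001 to 24000000, held 4 members among 11 regions. The Spearman correlation of the number of members with the number of regions of at least 10 kb over the windows was -0.0949, and windows rich in members were thus neither regularly rich nor regularly poor in broad domains. The longest stretch without a member was 903.2 kb, on 2L from 17582031 to 18485181, and it held 13 other regions, of which 5 were at least 10 kb long. The next was the end of 3L from 23681888 to 24543557, where 3 regions covered 0.601% of the sequence.

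The joint list, which is made from the same samples and gives the authors' values with no replicate of its own, had a call over part or all of every member. All 1316 members were overlapped by a region of that list, against 99.7% of all regions of replicate 1, and 1009 (76.7%) lay wholly inside one, against 73.2%. The joint regions over members were 3160.5 bp long in the median, and their median score was 0.535. Isolation held for 792 members (60.2%) in that list, against 44.2% of all overlapped autosomal regions, clustered ones included. Isolation and a length under 5000 bp held for 709 members (53.9%), against 58.9% of all 2338 isolated short autosomal regions of replicate 1, members included. The joint region was at least 5000 bp long for 201 members (15.3%), against 50.1% of all overlapped autosomal regions, long ones included. It was at least 10 kb long for 58 members (4.41%), a count not made for other regions. The member scores of replicate 1 had a Spearman correlation of 0.827 with the joint scores, and those of replicate 2 had 0.598. The joint region was found by its overlap with the replicate 1 member, and the replicate 2 score was the highest over that member. The correlations thus rest on unlike matches, and their difference does not show that the joint list follows replicate 1 more closely.

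Joined members show how isolation depended on the list. The 2250 bp member on 2L from 21911335 to 21913584 scored 0.533 and 0.609 and formed the edge of a joint region of 140.8 kb. The member on 2L from 8804371 to 8805959 was in a joint region of 73.2 kb. A pair of members on 2L, from 6248871 to 6252826 and from 6253970 to 6257060, entered the same joint region of 40.1 kb. A joint region on 3L from 14309445 to 14336630, 27.2 kb long, took in 3 members, and 25 of the 1290 joint regions that met members as their main counterpart held more than 1. Members that lost their isolation in the joint list had a median smaller gap of 2225.5 bp in replicate 1, against 4049.5 bp for those that kept it, with median scores in replicate 1 of 0.591 and 0.595.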

How the data were processed

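Embryos were fixed with formaldehyde before chromatin was prepared, per the labels' protocols, and input samples served as background. The submitters' processing notes name Bowtie 0.12.7. The lists give regions of significant enrichment on FlyBase release 5, per the file headers, with a score per region deposited by the authors. Not given in the sources used here are the scale of the score, the caller and its threshold, and how the joint list was made. The depth is unknown because read numbers were not used here, and regions therefore carry no counting interval.

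Positions are given from 1 with both ends included. The gap is the number of bases between successive regions, a chromosome end counted as far, and where a member met a pair of replicate 2 regions the one with the larger overlap gave position and length and the higher score was used. Named regions are the 10 highest and 5 lowest by mean rank of score in both replicates, the 5 most isolated, the 3 longest and shortest, the 5 with the largest and smallest difference of rank, and those nearest the limits. Further regions were taken from the runs, windows, empty stretches and joined regions after their values were seen. The members and lists were chosen with earlier results of these data known. No test was run, since measured values selected the members and the 2 replicates are of 1 condition. Nothing in the labels tells whether separate embryo collections gave the replicates, and their spread may be technical. Genes and sequences were not assigned, because the only gene table used is of release 6. The interval code was tested on simulated data. Alternatives were a score above the median of each list, gaps of 2000 and 5000 bp, a length under 3000 bp, a reciprocal overlap of 50%, exchanged lists, and each replicate alone. Tables were made in Python 3.11.15 with pandas 2.3.3 and NumPy 2.4.6, and figures with matplotlib 3.10.9.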

Additional observations from a re-analysis of the deposited data

How the results depend on the processing

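Of 68 alternative values, 40 moved and 28 did not. A count or density moved if it changed by more than a factor of 1.5. Isolation in replicate 2 and the share in the joint list moved if they left a 95% exact interval over members. Other values moved if they changed by at least the standard deviation between the 2 replicates. Members of 1 library are not replicates, so this tally is a description only. The gap, length and reciprocal settings change only which regions are members. The exchanged setting measures regions of replicate 2, and the last case drops the overlap between the lists. The score setting also shortens each list, so gaps, broad regions, enriched length and isolation are taken anew from what remains. Its score percentiles are ranks within the shortened lists. Isolation in replicate 2 and in the joint list was judged at 1000 bp under every gap setting. The share in the joint list is that of members both isolated and under 5000 bp there, under every length setting. With only regions above the median score of each list, there were 371 members (3.84 per Mb), the median length was 3339 bp, the share of enriched length was 9.00%, isolation in replicate 2 held for 92.7% and isolation with a short length in the joint list for 58.5%. A gap of 2000 bp gave 12.7% of the enriched length, 91.1% isolated in replicate 2 and 63.0% in the joint list. A gap of 5000 bp gave 430 members (4.45 per Mb), a median distance of 123.3 kb to broad regions, 5.80% of the enriched length, 94.9% isolated in replicate 2 and 70.9% in the joint list. A length under 3000 bp gave a median length of 2020 bp, a median score percentile of 34.5, 10.5% of the enriched length and 57.6% in the joint list. A reciprocal overlap of 50% gave 15.6% of the enriched length, 89.9% isolated in replicate 2 and 57.9% in the joint list. With the lists exchanged, the median length was 2061 bp, the score percentile 35.2, the distance 122.7 kb, the share of enriched length 22.6%, the covered share of a region 97.1%, isolation in the other replicate 77.9% and the share in the joint list 46.1%. In replicate 1 or replicate 2 alone, with no overlap asked for, there were 1901 to 2338 regions (19.7 to 24.2 per Mb) with a median length of 1937 to 1941 bp, a score percentile of 32.1 to 33.6, a distance of 92.5 to 118.2 kb, 26.5% to 27.8% of the enriched length and 47.0% to 58.9% in the joint list. The overlap with replicate 2 and isolation there have no value without 1 replicate. Of the 10 members with the highest mean rank, 4 remained members with a gap of 2000 bp and 3 with 5000 bp. With a length under 3000 bp 0 remained, and 10 each with a reciprocal overlap of 50% and with scores above the median. These 10 were picked for high scores and were all long and well covered. The counts under the length, overlap and score settings were therefore fixed in advance. No paired analysis was possible because only the immunoprecipitated samples have region lists, and they are of 1 condition. Whether depth limits the shortest members was not tested, as the files give no read numbers.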
